A study of Caenorhabditis elegans with 6 samples.

Results

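The comparison described here sets touch receptor cells of the nematode Caenorhabditis elegans that expressed a huntingtin fragment with an expanded run of 128 glutamines (128Q) against the same cells expressing the fragment with a normal run of 19 glutamines (19Q). It was made on 3 of the 6 deposited sets of 2-colour Agilent array ratios, each labelled as a biological replicate, with the 128Q cells named for the Cy5 dye and the 19Q cells for the Cy3 dye. The other 3 sets compare 19Q cells with cells that expressed GFP only. In all of these animals the mec-3 promoter drove the transgene, as an N-terminal piece of human huntingtin fused to GFP or as GFP alone, and the study's strain list gives 1 integrated line for each huntingtin transgene (igIs1 for 128Q and igIs245 for 19Q). That list names the fused protein CFP, not GFP, so it is not certain that these were the lines sorted. Embryos of gravid adults were dissociated, the cells were cultured overnight, GFP-positive cells were sorted, and their RNA was amplified in a linear round before labelling. The mec-3 promoter is also active outside the touch receptor neurons, as in the FLP neurons, so the gate could hold those cells.

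Each value is a log ratio as deposited, with no stated log base, so differences are given in deposited units and never as folds. A positive value means more RNA in 128Q cells. Genes were taken as members where a probe has a current C. elegans symbol or sequence name: 7441 such genes had a value on all 3 arrays, of 22033 features tested, and 36 named genes lacked a value. Of the 7441 genes, 1124 carry a gene name and 6317 only a sequence name. The set is not an even sample of the genome, since 14844 of the 22562 probes have no name here, and 0 of 54 marker genes of touch receptor neurons, other neurons, muscle, pharynx, hypodermis, intestine, germline, glia, excretory cell and coelomocytes have a named probe. The label of the sorted cells therefore could not be checked here against its defining markers. Of the touch receptor markers, the study's own table of selected genes lists mec-7, mec-12, mec-17 and mec-18 as lower in 128Q cells. From the pharynx markers it lists pha-4, myo-2, pqn-5, abu-6 and abu-7 as lower. Markers of other cells that it lists as lower include dpy-17 of the hypodermis, vha-5 of the excretory cell, lit-1 of glia and elt-2 of the intestine. Those entries come from the same arrays and were not retested, and the remaining markers are not given here.

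Touch receptor neurons are mechanosensory cells that lie along the body wall and sense gentle touch through a channel complex tied to a specialised extracellular matrix and to unusual microtubules. The homeodomain factor MEC-3 is needed for their identity. In Huntington's disease an expanded glutamine run in huntingtin makes the protein prone to aggregate and impairs neurons long before they die. The nematode comparison asks which transcripts differ when the same cells carry the long instead of the normal run.

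Over all features the 3 arrays correlated with each other at r = 0.539 (arrays 1 and 2), 0.552 (1 and 3) and 0.677 (2 and 3), across features, which are not independent replicates. Their spread was unequal, with an SD over all probes of 1 on array 1, 0.783 on array 2 and 0.81 on array 3. Each of the 3 arrays of 19Q over GFP only had an SD of 1. Whether arrays were scaled before deposit is not stated, so a unit may not mean the same on each array. A set of 246 unnamed probes was picked for values under -3 on array 1 and for an even spacing on the array list. They were thus low on array 1 by choice, with a median of -5.57, against 0.16 on array 2 and 0.79 on array 3. On the 3 arrays of 19Q over GFP only their medians were -7.07, -5.91 and 0.32. Without them the correlations were 0.682, 0.763 and 0.681. The choice itself favours a rise in the pairs with array 1.

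Each gene's mean over the 3 arrays was tested against 0 with limma, and a gene was called at a Benjamini-Hochberg adjusted p under 0.01 over all features, the false discovery rate the study used. In all, 449 features (2.04%) were called, 259 higher (1.18%) and 190 lower (0.862%) in 128Q cells. Among the named genes 178 (2.39%) were called, 96 higher (1.29%) and 82 lower (1.1%), and all 3 arrays of each of the 178 lay on 1 side of 0. When the threshold was an adjusted p under 0.05, the counts were 3700 features (16.8%), with 1704 higher (7.73%) and 1996 lower (9.06%), of which 583 higher (7.83%) and 703 lower (9.45%) were named genes. The calls at 0.01 lay close to the threshold, the lowest adjusted p being 0.00755, and 0 remained when any 1 of the 3 arrays was left out or when the arrays were scaled to 1 spread (lowest adjusted p 0.0203, limma). At an unadjusted p under 0.05 there were 5172 to 7339 features with an array left out and 7239 after scaling. Without the 246 low probes there were 1258 calls at 0.01. In what follows "rose" and "fell" are used for calls at 0.01, and a gene is said to be past 0.05 where only that threshold was met.

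The call itself depends on the mean set against the spread of these 3 arrays, so the sizes of called genes are given as a description. The 96 named genes that rose had means from 1.38 to 3.89, with a median of 2.54 and a median SD of 0.3 (n = 3). The 82 that fell had means from -3.69 to -1.39, with a median of -1.93 and a median SD of 0.22 (n = 3). Protein-coding genes made up nearly all of the calls, with 94 of 6907 higher (1.36%) and 81 lower (1.17%), while 2 of 508 pseudogenes rose (0.394%) and 0 fell. At 0.05 the same limma fit gave 20 pseudogenes higher (3.94%) and 14 lower (2.76%), against 8.12% higher and 9.95% lower of the protein-coding genes.

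Most of the genes that rose have no gene name, whereas 24 of the 33 called genes with one fell: of the 1124 genes with a gene name, 9 rose (0.801%) and 24 fell (2.14%), 2.94% in all. At 0.05, 112 were higher (9.96%) and 168 lower (14.9%), 24.9% in all. The gene lists described below are made of genes with a gene name, and these shares lie above those of all features. The shares of the lists are therefore to be read beside 9.96% and 14.9% as well. The 33 called genes were chosen with all 3 arrays on 1 side of 0. A kept direction with an array left out was fixed by that choice. They kept their direction in 11 other processing settings, which refit the same values, and 31 to 33 stayed past 0.05 when an array was left out. The plot of called genes with a gene name shows each array.

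**Figure D1:**
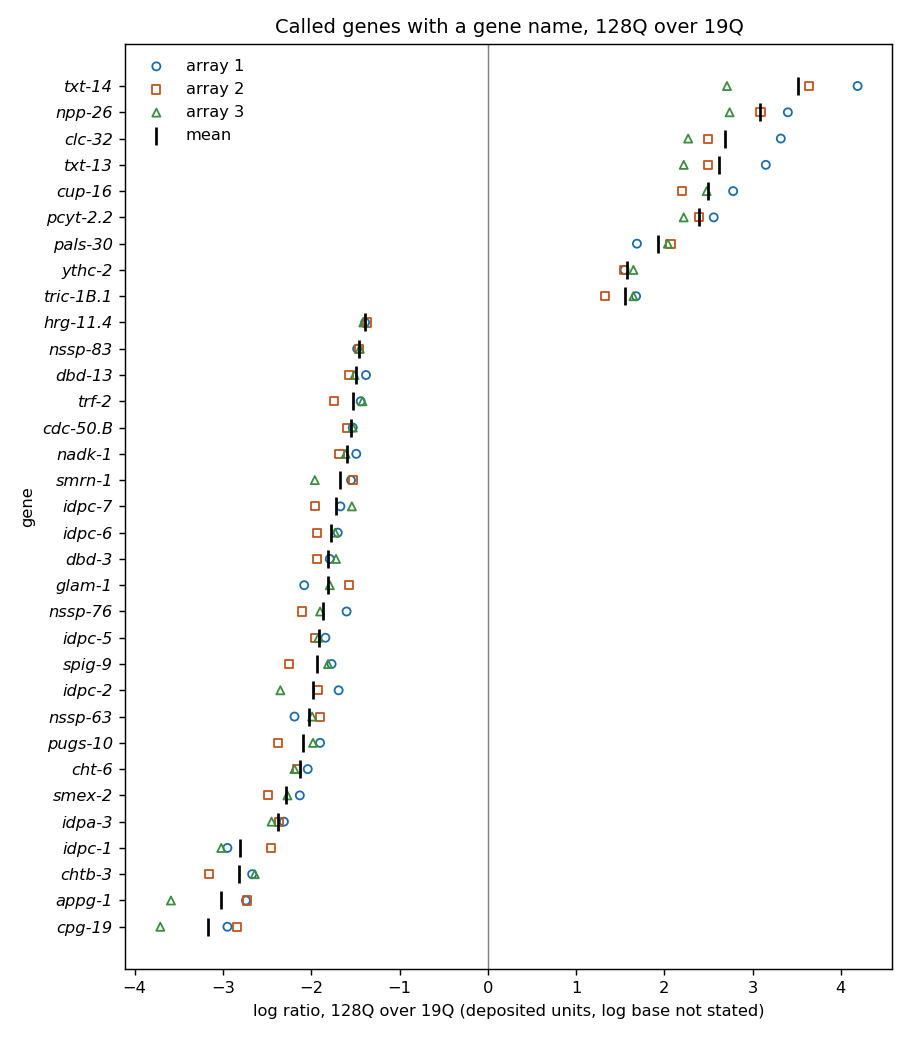
Log ratios (x axis, deposited units) of the 33 called genes with a gene name (y axis) on the 3 arrays of 128Q over 19Q; open symbols are arrays and the black bar is the mean. The 9 genes that rose have means from 1.55 to 3.51 and the 24 that fell from -3.17 to -1.39, and no gene has arrays on both sides of 0.

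Genes of the pharyngeal cuticle and of chitin-containing matrix had more calls than any other list among the genes that fell. The chitin-rich cuticle lining the worm's feeding organ holds many proteins that are predicted to be disordered, and the idpa, idpb, idpc and idpp symbols mark such families. With the 2 appg genes, 29 members were tested: 7 fell, 16 were past 0.05 in the lower direction (55.2%, beside 9.06% of all features), 0 were past it in the higher direction, and 22 lay below 0 on all 3 arrays. With array 1, 2 or 3 left out, 13, 14 and 8 were past 0.05, all lower. Their median of the mean log ratios was -1.26, against 0.05 over all features.

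Within the group the idpc family moved as a block. All 5 tested members fell, with means from -2.81 to -1.72 and a median of -1.91. The idpc-1 gene lay at -2.95, -2.46 and -3.02 on arrays 1 to 3, a mean of -2.81 ± 0.31 (SD, n = 3; limma adjusted p = 0.00755). For idpc-5 the values were -1.84, -1.96 and -1.92, and for idpc-6 they were -1.7, -1.93 and -1.73. These arrays are close together for each gene and far from 0. The idpc-5, idpc-6 and idpc-7 genes stand side by side in the genome, and members of one family can share sequence, so cross-hybridisation between their probes was not tested.

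The other families of the pharyngeal cuticle were less uniform. Among the idpa genes, idpa-3 fell, at -2.31, -2.37 and -2.45 (mean -2.38 ± 0.07, SD, n = 3), while idpa-1 and idpa-2 had means of -0.23 and -0.22 and arrays on both sides of 0. Of 5 idpb genes, 4 were past 0.05 in the lower direction with means between -2.12 and -1.51, and idpb-3 had a mean of 0.42 that did not pass. Of 14 idpp genes, 5 were past 0.05, all lower, and the family's median was -0.99. The appg-1 gene fell by 3.02, with values of -2.74, -2.73 and -3.59 on the 3 arrays.

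Chitin and chondroitin genes showed the same direction. Of 10 tested, 3 fell, 5 were past 0.05 in the lower direction (50%) and 9 had means below 0, with a median of -1.06. With array 3 left out, 3 were past 0.05. The cpg-19 gene, named as a chondroitin proteoglycan, lay at -2.95, -2.84 and -3.71 (mean -3.17 ± 0.47, SD, n = 3; limma adjusted p = 0.00827). It was the lowest of the called genes with a gene name. A gene named for a chitin-binding domain, chtb-3, lay at -2.67, -3.16 and -2.64, and cht-6, of the chitinase family, at -2.04, -2.16 and -2.19. The cht-5 gene was past 0.05 at a mean of -1.39 ± 0.28 (SD, n = 3). Outside the called members, cpg-18 and chtb-2 lay near 0, at -0.05 and 0.15.

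Pharyngeal cuticle proteins are made by cells of the pharynx, not by touch receptor neurons, so their level is a marker of another cell type that a sort could carry. In these bulk ratios, fewer pharyngeal cells and less RNA per cell cannot be told apart. The list's median was -1.19, -1.62 and -1.69 on the 3 arrays of 128Q over 19Q. On the 3 arrays of 19Q over GFP only, which use the same kind of 19Q cells as the other side of the ratio, it was -0.35, -0.54 and -0.07. The part that the share of pharyngeal cells in the sorted material has in these values was not tested.

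Neuropeptide-like genes leaned lower. The nlp genes encode precursors of small signalling peptides, many of them released by neurons. Of 25 tested, limma called 0 at 0.01 (at an unadjusted p under 0.05, 19 were lower and 1 higher), 11 were past 0.05 in the lower direction (44%), 0 in the higher direction, and 23 had means below 0, with a median of -0.93. The nlp-61 gene lay at -1.8, -1.26 and -1.47 (mean -1.51 ± 0.27, SD, n = 3; limma adjusted p = 0.0123), and nlp-56 at -1.43, -2.36 and -1.69. The members with means above 0 were nlp-90, at 0.06, and nlp-68, at 1.92, 0.5 and 1.41, and neither passed a threshold. Array 2 carried the lowest list median, -1.24, against -0.68 and -0.64 on arrays 1 and 3, and leaving out an array left 1 to 5 nlp genes past 0.05 in the lower direction. On the arrays of 19Q over GFP only the same genes had medians of 0.28, 0.24 and 0.37.

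The receptors did not follow 1 direction. Among 11 genes with neuropeptide receptor symbols, 2 were past 0.05 in the lower direction (beside 9.06% of all features) and 1 in the higher (9.09%, beside 7.73%), and 0 were past it in either direction without array 3 (limma). The npr-41 gene lay at -1.52, -2.35 and -2.21 (mean -2.03 ± 0.44, SD, n = 3), whereas npr-39 lay at 2.5, 1.53 and 2.22 (mean 2.08 ± 0.5, SD, n = 3). The list's median was 0.

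Small secreted peptide genes of the nssp and nspg families, which are named as nematode-specific, made up the longest list. Of 71 tested, 3 fell, 26 were past 0.05 in the lower direction (36.6%) and 1 in the higher, with a median of -0.67. The nssp-63 gene lay at -2.19, -1.9 and -1.99, nssp-76 at -1.6, -2.1 and -1.9, and nssp-83 at -1.48, -1.46 and -1.45. Values of nssp-83 differed by less than those of any other called gene of the list. The member that went the other way was nssp-85, at 2.1, 1.61 and 1.43 (mean 1.72, limma adjusted p = 0.012). Leaving out an array left 3 to 8 genes of the list past 0.05 in the lower direction.

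**Figure D2:**
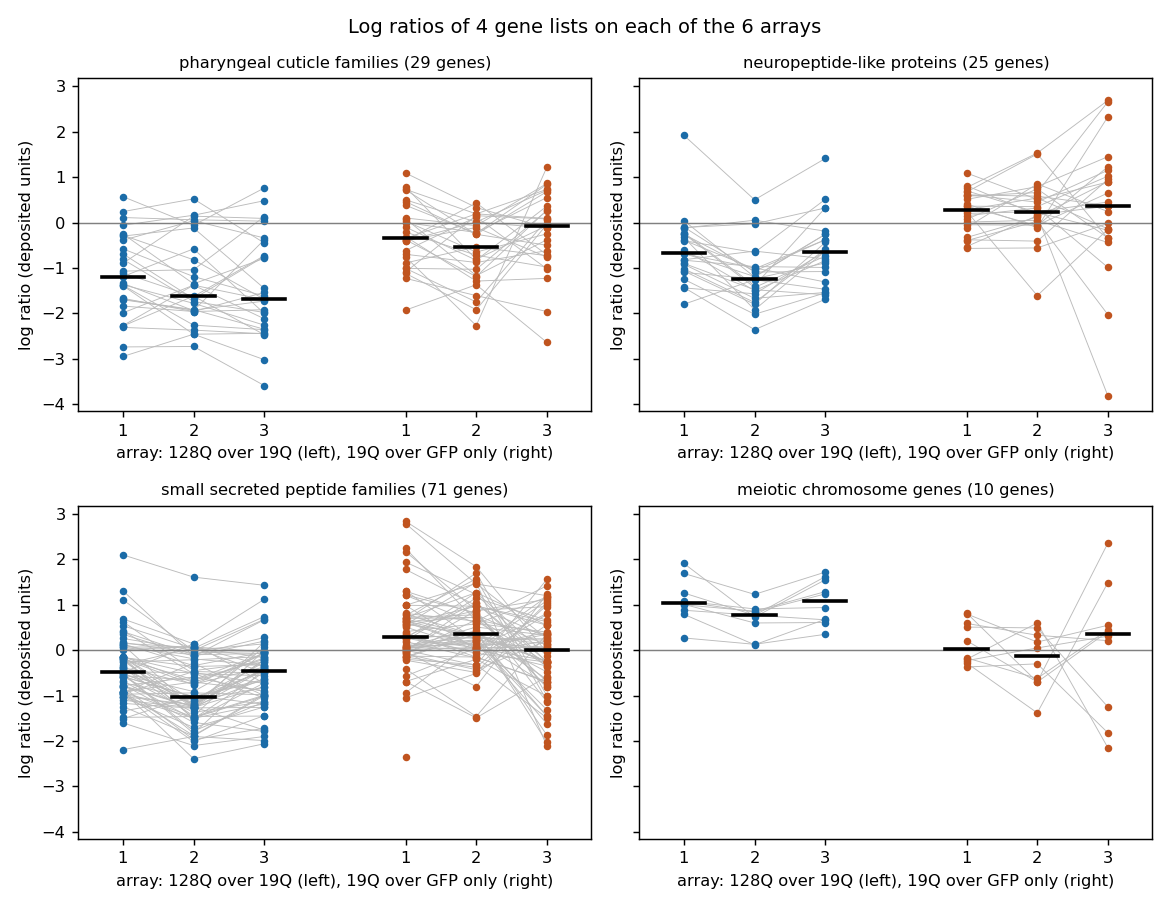
Log ratios (y axis, deposited units) of 4 gene lists on the 3 arrays of 128Q over 19Q (left, blue) and the 3 arrays of 19Q over GFP only (right, orange); each point is a gene, grey lines join a gene's arrays, and black bars are list medians. The pharyngeal cuticle, neuropeptide-like and small secreted peptide lists have medians below 0 on all 3 arrays of 128Q over 19Q, and the meiotic list has medians of 1.04, 0.77 and 1.09.

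A list of glutamate receptor and interleukin 17 genes held 1 gene that fell. The trf-2 gene, a homolog of the TRAF adaptors that act below cytokine receptors, lay at -1.44, -1.74 and -1.42 (mean -1.53 ± 0.18, SD, n = 3; limma adjusted p = 0.00995). In the worm, interleukin 17 signalling acts in neurons, and its receptor gene ilcr-1 was past 0.05 at -1.36, -0.95 and -1.1. The partner ilcr-2 had a mean of -0.24 that did not pass. The ionotropic glutamate receptor family members glr-9 and glr-10 were past 0.05 with means of -1.75 and -0.7. In this list of 7 genes 4 were past 0.05, all lower (57.1%, beside 9.06% of all features), and between 1 and 3 stayed past it when an array was left out. The list joins unlike families and was put together with earlier results of these data known, so its share is a description only.

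Further called genes that fell have roles in metabolism and membranes. The nadk-1 gene, for a NAD kinase, lay at -1.49, -1.68 and -1.61. The cdc-50.B gene, for a subunit of lipid flippases, lay at -1.53, -1.6 and -1.53. The arrays of each of these genes lay close together. The hrg-11.4 gene, of a family named for its response to heme, shared with nssp-83 the smallest SD among the called genes with a gene name (-1.39 ± 0.02, SD, n = 3), and smex-2 (-2.29 ± 0.18), smrn-1 (-1.68 ± 0.24) and glam-1 (-1.81 ± 0.26) fell as well. Of the genes on the worm's surface and in its excretory canal, exc-12 and bus-5 had means of -1.75 and -1.53 past 0.05. In all 4 of 11 were past it, all lower (36.4%, beside 9.06% of all features), and 0 or 1 when an array was left out.

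The families dbd, pugs, srlf and spig, whose names carry no role used here, each had more members past 0.05 in the lower than in the higher direction. The dbd family had 2 genes that fell, dbd-3 (-1.79, -1.94 and -1.72) and dbd-13 (-1.38, -1.57 and -1.51), and 8 of 15 past 0.05 in the lower direction (53.3%) against 1 in the higher. In the pugs family pugs-10 fell by 2.09 and 4 of 10 were past 0.05, all lower (40%). Of 24 srlf genes 7 were past 0.05, all lower (29.2%). Of 14 spig genes 3 were past 0.05 in the lower direction (21.4%) and 1 in the higher, spig-9 fell by 1.94, and 8 of the 14 means lay above 0, with a median of 0.04. Over all features 9.06% were past 0.05 in the lower direction, and 14.9% of genes with a gene name. With array 1, 2 or 3 left out the lower counts were 2, 6 and 3 for dbd, 2, 2 and 1 for pugs, 2, 2 and 1 for srlf, and 2, 2 and 1 for spig.

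Genes that rose had no list with as many calls at 0.01. The highest called gene with a gene name was txt-14, at 4.19, 3.64 and 2.71 (mean 3.51 ± 0.75, SD, n = 3; limma adjusted p = 0.0097), and its family member txt-13 lay at 3.15, 2.5 and 2.22. Array 1 was the highest and array 3 the lowest for both. The other txt genes lay on both sides of 0, and the list's median was 0.07. The npp-26 gene, named as a nuclear pore protein, lay at 3.4, 3.09 and 2.74 (mean 3.08 ± 0.33, SD, n = 3; limma adjusted p = 0.00755).

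Membrane and lipid genes were among the others that rose. A member of the claudin-like family of membrane proteins, clc-32, lay at 3.32, 2.49 and 2.27. Of 18 claudin-like genes 2 were past 0.05 in the higher direction and 3 in the lower, with a median of -0.18. Besides clc-32 the higher gene was clc-9, at a mean of 1.9. The lower genes were clc-19, clc-14 and clc-7, at means of -2.09, -1.3 and -0.9. The pcyt-2.2 gene, for an enzyme of phosphatidylethanolamine synthesis, lay at 2.56, 2.39 and 2.22 (mean 2.39 ± 0.17, SD, n = 3). The tric-1B.1 gene, for an intracellular cation channel that works beside calcium release channels, lay at 1.68, 1.33 and 1.65. The cup-16 gene lay at 2.78, 2.2 and 2.48. In the pals family, known for its part in the response to intracellular infection, pals-30 rose (1.69, 2.07 and 2.04). The pals-29 gene was past 0.05 at a mean of 1.7, and pals-16 was past it in the lower direction at -1.07. Of 27 pals genes 2 were past 0.05 in the higher direction (7.41%, close to the 7.73% of all features). In the lower direction 1 was past it (3.7%, beside 9.06%), and the median of the 27 genes was 0.09.

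Genes of meiosis stood above 0 throughout. Synaptonemal complex proteins hold paired chromosomes together in the germline and the RING finger ZHP proteins act in crossing over. Of 10 genes tested, limma called 0 at 0.01 (9 were higher at an unadjusted p under 0.05) and 8 were past 0.05 in the higher direction (80%, beside 7.73% of all features). Each of the 10 lay above 0 on all 3 arrays, and the list's median was 1.01. The synaptonemal complex gene syp-6 lay at 1.69, 1.23 and 1.72 (mean 1.55 ± 0.28, SD, n = 3; limma adjusted p = 0.012), syp-5 at 1.26, 0.77 and 1.62, and zhp-1 at 1.91, 0.73 and 1.55. The rmh-1 gene, which limits and places crossovers, lay at 1.08, 0.91 and 0.94. With an array left out, 0 (array 1 or 3) or 5 (array 2) of the 10 were past 0.05.

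The germ granule and small RNA list shared members with this pattern. Of 17 genes, 4 were past 0.05, all higher (23.5%, beside 7.73% of all features), and 2, 3 and 2 with array 1, 2 or 3 left out. They were mip-2 (2.19, 1.53 and 1.44) and mip-1 (1.23, 1.39 and 1.85), which encode scaffold proteins of germ granules, simr-1 (1.93, 1.66 and 1.03) and uad-2 (1.71, 1.23 and 1.71), both of small RNA pathways. The other 13 had means from -0.17 to 0.64. Of 13 sperm genes 1 was past 0.05, in the higher direction (7.69%, close to the 7.73% of all features), and the median was 0.14. Genes of meiosis and germ granules are markers of germ cells, which the gate should not hold: the meiotic list had medians of 1.04, 0.77 and 1.09 on the arrays of 128Q over 19Q and of 0.02, -0.12 and 0.36 on those of 19Q over GFP only. The part of other cells in these values was not tested.

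Replication, splicing and mitochondrial genes lay above 0 to a smaller extent. Of 20 DNA replication and repair genes 8 were past 0.05, all higher (40%), with a median of 0.57. The cohesin acetyltransferase gene eco-1 lay at 1.2, 0.99 and 1.25, and ctf-4, for a protein that links helicase and polymerase at the replication fork, at 1.46, 0.65 and 1.04. The checkpoint mediator gene clsp-1 had a mean of 1 and pold-1, for the catalytic subunit of polymerase delta, one of 0.82. Leaving out array 1 or 3 left 0 of these past 0.05, and leaving out array 2 left 2.

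Of 23 spliceosome genes, 5 were past 0.05, all higher (21.7%), led by rbmx-2 (1.19, 1.39 and 1.76) and prp-40 (1.06, 1.96 and 0.88), with a median of 0.47. Scaling the arrays to 1 spread left 1 gene past 0.05, and leaving out an array left 0 or 1. Ribosome biogenesis, tRNA modification, translation factor and RNA polymerase II lists had 2 of 11, 2 of 14, 2 of 12 and 3 of 19 genes past 0.05, all higher (beside 7.73% of all features), with medians between 0.22 and 0.47. In each of these lists 0 genes were past 0.05 when array 1 or array 3 was left out. These genes act in all cell types. On the arrays of 19Q over GFP only the translation factor medians were 0.53, 0.68 and 0.7, and those of ribosome biogenesis 0.57, 0.55 and -0.24. For tRNA modification they were 0.16, 0.32 and 0.18, and for RNA polymerase II 0.28, 0.45 and 0.23.

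Of 31 mitochondrial genes outside the respiratory chain, 9 were past 0.05 in the higher direction (29%, beside 7.73% of all features) and 3 in the lower (9.68%, close to the 9.06% of all features), with a median of 0.47. With array 1, 2 or 3 left out the higher count was 1, 5 and 0. The folate carrier gene slc-25A32 lay at 1.16, 1.97 and 1.64, and lonp-1, for a mitochondrial protease, at 1.09, 1.22 and 0.76. The gene of the mitochondrial DNA helicase Twinkle, twnk-1, lay at -1.51, -1.11 and -1.46 (mean -1.36 ± 0.22, SD, n = 3; limma adjusted p = 0.0129). Of 15 respiratory chain genes 2 were past 0.05, both higher (13.3%, beside 7.73% of all features and 9.96% of genes with a gene name). They were the complex I genes ndub-3, at a mean of 0.85, and ndua-12, at 0.79, and 0 genes of the list were past 0.05 with any array left out. Of 22 secretory pathway genes 3 were past 0.05 in the lower direction (13.6%, beside 9.06% of all features) and 1 in the higher (4.55%, beside 7.73%). The lower genes were the oxidoreductase genes erp-44.2 and erp-44.3, at -1.3 and -1.33, and ergi-1, at -0.84. The higher gene was the glycosylation gene algn-6, at 1.07, and 0 genes of that list were past 0.05 without array 3.

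**Figure D3:**
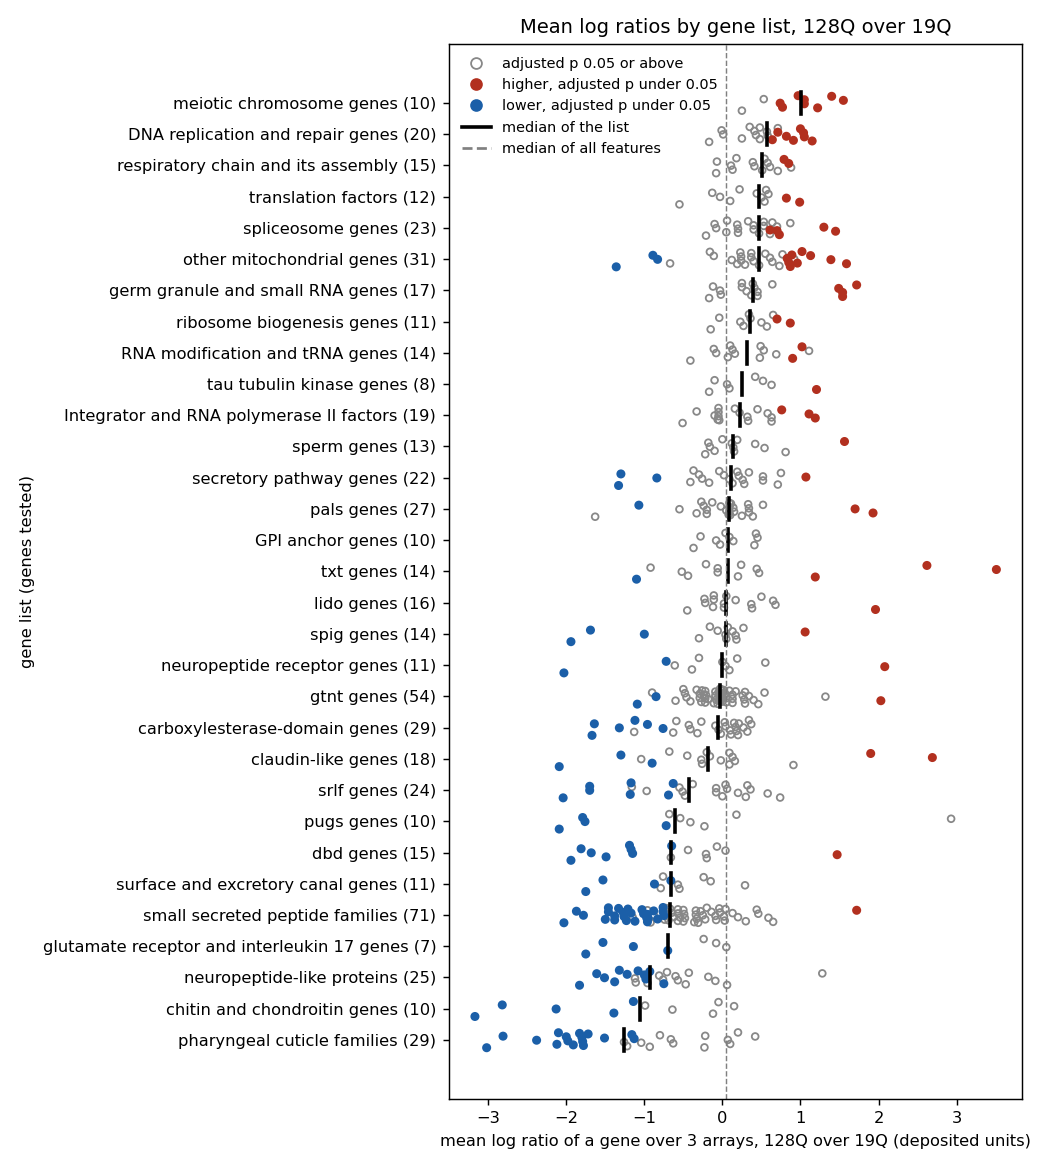
Mean log ratio over 3 arrays of 128Q over 19Q (x axis, deposited units) for each gene of 31 lists (y axis, number of genes tested in brackets); filled points are past an adjusted p of 0.05, black bars are list medians and the dashed line is the median of all features, 0.05. Medians run from -1.26 for the pharyngeal cuticle families to 1.01 for the meiotic chromosome genes.

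The nematode huntingtin gene itself, htt-1, chosen here after its values were seen, lay at 0.53, 0.84 and 1.36 on the 3 arrays (mean 0.91 ± 0.42, SD, n = 3) and was past 0.05 with a limma adjusted p of 0.0484. On the arrays of 19Q over GFP only it lay at 1.22, 0.99 and 1.15. All 6 values are above 0. The transgene is a human huntingtin fragment, and whether the probe for htt-1 can bind it was not tested.

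Human homologs were taken from the study's table of genes it had selected on these same arrays, so the direction of these genes is not independent evidence. For 53 tested genes a homolog was read from it, in rows whose symbol did not repeat on an adjacent row. Single symbols may still be misprinted in the copy read. Of the 53 genes, 30 had means above 0 and 23 below 0, 10 rose and 5 fell, and 30 and 22 were past 0.05. The highest was C48E7.6, listed with the chondroitin sulfate proteoglycan CSPG4, at 4.56, 2.9 and 4.2 (mean 3.89 ± 0.87, SD, n = 3; limma adjusted p = 0.00972). It lay opposite to cpg-19, the chondroitin proteoglycan gene that fell by 3.17.

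Other genes with a listed homolog that rose fall in several functions. The K09A9.6 gene, listed with the aspartate beta-hydroxylase ASPH, lay at 3.13, 3.13 and 2.23, and Y53G8B.2, listed with the monoacylglycerol acyltransferase MOGAT2, at 3.4, 2.34 and 2.49. The W02B3.4 gene, listed with fukutin, an enzyme that builds the sugar chains of dystroglycan, lay at 2, 2.3 and 1.68. The F28H1.4 gene, listed with the myelin membrane protein plasmolipin, lay at 2.13, 2.06 and 1.65. The values of ythc-2, listed with the RNA helicase YTHDC2 that is needed for meiosis in mammals, were 1.55, 1.54 and 1.65 (mean 1.58 ± 0.06, SD, n = 3), the closest of the genes that rose and have a gene name. F46C5.6 (mean 2.99), M01F1.9 (2.33), F53F10.1 (2.29) and T22C1.1 (1.46) rose too and are listed with human genes known by a clone or open reading frame number.

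Among those that fell, F11E6.8, listed with the receptor tyrosine kinase MST1R, lay at -2.34, -2.23 and -2.5 (mean -2.36 ± 0.14, SD, n = 3; limma adjusted p = 0.00755). The scavenger receptor-like C06B8.7 lay at -1.87, -1.79 and -1.65. The ZK792.4 gene, listed with the actin-bundling protein espin of hair cell stereocilia, lay at -1.68, -1.42 and -1.73. Past 0.05 only, lev-9, listed with CSMD3 and needed in the worm for clusters of acetylcholine receptors at neuromuscular junctions, had a mean of 2.32, and chmp-7, of the membrane-remodelling ESCRT-III machinery, one of 1.29.

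**Figure D4:**
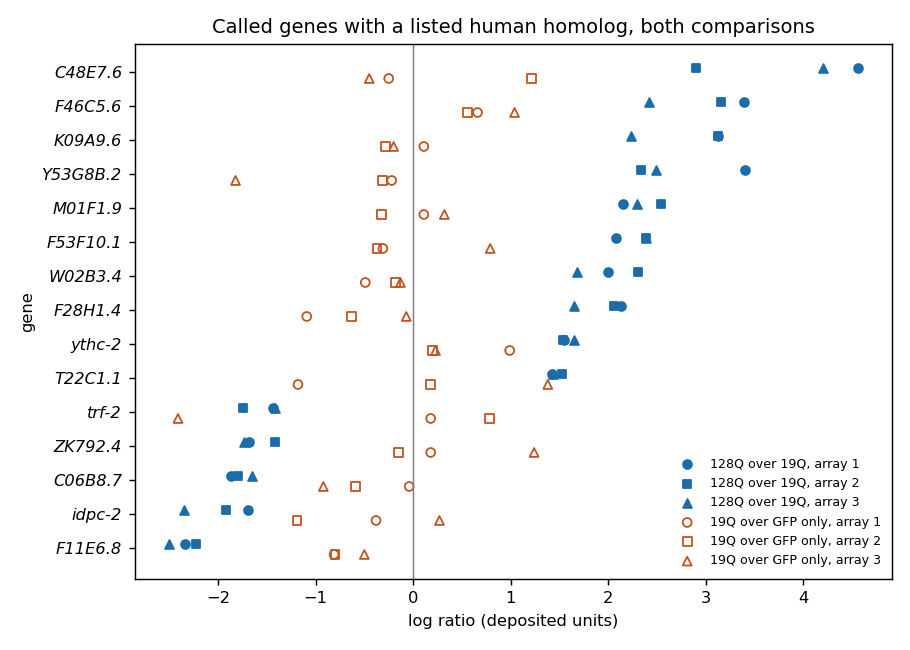
Log ratios (x axis, deposited units) of the 15 called genes with a listed human homolog (y axis); filled symbols are the 3 arrays of 128Q over 19Q and open symbols the 3 arrays of 19Q over GFP only. The 10 genes that rose have means from 1.46 to 3.89 and the 5 that fell from -2.36 to -1.53.

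The 19Q cells stand on opposite sides of the ratio in the other comparison, so values of both share the 19Q cells and are given side by side only. For the 96 named genes that rose, the medians on arrays 1 to 3 were 2.78, 2.49 and 2.31 for 128Q over 19Q and 0.13, 0.29 and 0.17 for 19Q over GFP only. For the 82 that fell they were -1.9, -1.94 and -2.02 and then -0.36, -0.43 and -0.19. Over all features the medians of 19Q over GFP only were 0.09, 0.14 and 0.08. Single genes varied: idpc-6 was low on all 6 arrays (-1.23, -1.61 and -1.96 in 19Q over GFP only), clc-14 lay at 1.42, 0.28 and 1.11 there, and nadk-1 at -0.02, 0.1 and -0.05.

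Some called genes were neighbours. Among 2791 pairs of tested protein-coding genes that adjoin each other in the gene table, which hold 4412 genes with 57 that rose and 51 that fell, 1 pair rose together (F52G2.3 at 1.96 and Y45F10B.13 at 3.25) and 3 pairs fell together: idpc-5 with idpc-6, idpc-6 with idpc-7, and F58B4.6 (-1.79) with nssp-63. At 0.05, with 343 of these genes higher and 449 lower, the pairs numbered 46 higher, 54 lower and 24 in opposite directions. The 5 named genes just inside the threshold of 0.01, trf-2, Y19D10A.4, tric-1B.1, K07C5.3 and F02C9.1, had means of -1.53, 2.3, 1.55, 1.4 and 3.51. Just outside it, C50F2.7, F54B8.4, C26B2.8, F43G6.7 and F21C10.4 had means of -1.9, -1.65, -1.51, 1.61 and 1.95, so sizes on both sides overlap.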

How the data were processed

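The authors deposited 1 table of log ratios for 22562 probes on 6 arrays, used here as a score because the log base is not stated. Each array was centred near 0. GenePix software, a linear amplification and dye swaps are described; how background was removed, how ratios were normalized and whether swapped arrays were merged is not stated in what was read here. The dyes named in the labels set the direction, with 128Q under Cy5 on all 3 arrays, so a dye effect and the groups cannot be told apart unless swaps were merged. Nothing in the labels says that replicates came from separate cultures, so p-values measure the spread between these arrays. Names came from the platform's annotation (7718 probes with 1 symbol, 0 with several), updated for 7691 through the RefSeq gene table of WBcel235, and 57 genes with several probes were averaged.

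A limma 3.58.1 fit (R 4.3.3) of the 3 arrays tested each mean against 0, with Benjamini-Hochberg adjustment over 22033 features (prior degrees of freedom 2.69, prior variance 0.0878). On simulated data for this comparison of 22033 features with 200 changed, the fit at 0.01 recovered 0, 0 and 187 genes changed by 1, 2 and 4 units and at 0.05 it recovered 0, 147 and 195, with at most 11 false calls. The simulated spreads were drawn from the fit's own prior, so these counts hold only for data that meet its assumption. Depth has no meaning for arrays; their number limits the precision. Named genes were all called genes with a gene name and 1 sign on 3 arrays, called genes with a listed homolog, and the 2 lowest p of each list. A RefSeq description, which that rule also allows, was not used here, and lists that need one were replaced by lists of gene symbols. Members and lists were chosen with earlier results of these data known. Alternatives were all 6 arrays in 1 fit, robust moderation, centring, scaling, missing values, probes, named genes only, the low probes left out, each array left out, and the replicate number as a block.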

Additional observations from a re-analysis of the deposited data

How the results depend on the processing

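The number of calls depended on the processing. At an adjusted p under 0.01 by limma there were 449 calls (259 higher, 190 lower) in the fit reported. There were 3700 (1704 higher, 1996 lower) at an adjusted p under 0.05, 0 (0 higher, 0 lower) after scaling, 700 (379 lower) over named genes only, where 7441 genes were tested, and 1258 (639 higher, 619 lower) without the 246 low unnamed probes. With an array left out the counts at 0.01 were 0 to 0 for all calls, for higher and for lower calls, with 5172 to 7339 features at an unadjusted p under 0.05. At an adjusted p under 0.05, the 3700 calls became 2327 with all 6 arrays in 1 fit, 1743 over named genes only, and 812 to 2014 with an array left out. With the replicate number as a block in a fit of all 6 arrays there were 216 calls (169 higher, 47 lower) at 0.01 and 1672 at 0.05. Deviations of same-numbered arrays of the 2 comparisons correlated at r = 0.43, -0.13 and 0.335 for numbers 1, 2 and 3. Without the 246 low unnamed probes these were -0.0432, -0.000476 and 0.00347, and the numbers were not taken to pair the samples. Under robust moderation, centring on the median, at least 2 of 3 values and single probes, the count of calls stayed within 1.5 times of 449.

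Of 93 genes examined singly, 0 changed direction under any setting run. Nearly all were picked by their calls or lowest p on these arrays, so a kept direction is no separate support. The 45 that were called lost the call at 0.01 after scaling and with any array left out, 33 of them under the block and 11 with all 6 arrays. The median of the neuropeptide receptor genes was 0 in the fit reported, -0.04 after centring and -0.03 after scaling, and from -0.06 to -0.01 with an array left out. Left-out arrays moved the medians of DNA replication and repair genes (0.48 to 0.75), respiratory chain genes (0.23 to 0.57), secretory pathway genes (0.04 to 0.22), carboxylesterase-domain genes (-0.17 to 0.01), srlf genes (-0.49 to -0.26) and gtnt genes (-0.1 to -0.01). A test rebuilt after the study's variance mixture made 106 to 109 false calls at 0.01 in simulated data for this comparison, and its counts on the arrays were left out for that reason. The simulated spreads were drawn from limma's own fitted prior, not from a mixture of variance classes. These false calls therefore cannot judge the study's test or set it against limma on the arrays. The causes of these shifts were not tested.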
